A study of Mus musculus with 6 samples.

Results

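Deep cortical layer spots were chosen on 6 coronal brain sections as the spots with the highest combined level of Fezf2, Rprm, Nxph3, Vxn and Myl4, 5 genes known from layers 5 and 6 of the mouse cortex. Each gene was expressed as counts per 1000000 unique molecular identifiers (UMIs) of the spot (CPM), divided by its mean over the section, and the 5 ratios were averaged into a score. The 8% of spots with the highest score on each section became members, which gave 1627 of 20336 spots with at least 500 UMIs. The P21 sections held 288 and 265 members, the adult sections 233 and 261, and the aged sections 294 and 286. A Visium spot is a small circle of tissue that can hold several cells of different types, so a value for the members describes a strip of tissue and not a cell type.

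The sections came from 6 male C57BL/6J mice with no treatment, fixed in formalin and embedded in paraffin, with 2 mice at postnatal day 21 (P21), 2 adults of 12 to 15 weeks and 2 aged mice of 28 months. RNA was read with 10x Genomics probes that each target a known gene. P21 and adult sections were mounted on Visium v1 slides, while the aged sections were moved by the CytAssist instrument onto Visium v2 slides, for which the study's methods describe another probe design and a later release of the counting software. Slide version and age therefore cannot be told apart in aged vs. adult, whereas P21 and adult sections shared 1 protocol. P21 mice were bred from wild-type pairs, while the adult mice were purchased and the aged mice came from the National Institute on Aging. Source of the mice and age therefore cannot be told apart in either comparison, P21 vs. adult included. Members held 9008546 and 2935876 UMIs at P21, 4498382 and 4344012 on the adult sections and 8778736 and 11685459 on the aged sections. The second P21 section was the shallowest, with a median of 11212 UMIs per member spot against 17118 to 39114.5 on the other 5 sections.

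The neocortex is built of layers of neurons that differ in their targets. Layer 5 holds neurons that project to the brainstem, spinal cord and striatum, layer 6 holds corticothalamic neurons, and layer 6b is a thin sheet of neurons that lies on the white matter. The transcription factor Fezf2 directs the subcerebral identity of layer 5 neurons, and Tbr1 is the factor that opposes it in corticothalamic neurons of layer 6. Myelination of these layers and the closing of perineuronal nets, the lattice of matrix around fast-spiking interneurons, continue after weaning in the mouse.

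The 5 score genes, which the rule used and which were therefore not tested, ranged from 103 to 125 CPM (Fezf2), 93.6 to 196 CPM (Rprm), 133 to 186 CPM (Nxph3), 777 to 992 CPM (Vxn) and 189 to 264 CPM (Myl4) over the member sums of the 6 sections. In all other spots of the same sections they ranged from 19.3 to 28.6, 25.5 to 45.5, 20.1 to 29.0, 198 to 263 and 24.5 to 31.0 CPM. The lowest score of a member lay between 2.58 and 3.43 times the section mean, and the highest score outside lay just under it on every section. In the 10 spots just inside the limit, pooled per section, Fezf2 stood at 82.5 to 152 CPM, and in the 10 spots just outside at 75.8 to 149 CPM, so the edge of the set is a cut through a continuous range.

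On every section the members formed a band that ran parallel to the surface of the cortex. Between 88.5% and 97.6% of members belonged to the largest group of members linked by steps of at most 3 spot pitches, the distance between neighbouring spots. A member had 2.64 to 3.41 adjacent members on average, and a spot outside had 0.22 to 0.29. The remaining members lay in small patches below the band, which on the aged sections were more compact than on the others.

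**Figure D1:**
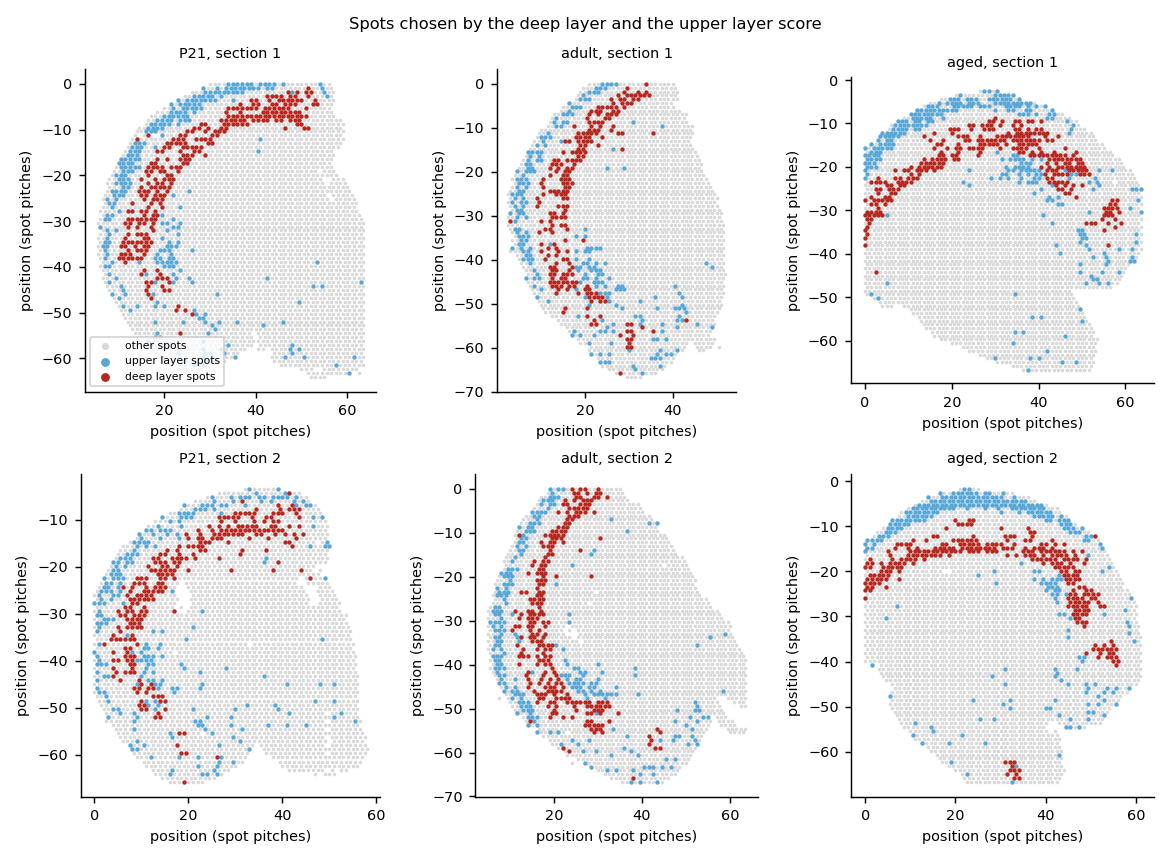
Positions of deep layer spots (red), upper layer spots (blue) and all other spots (grey) on the 6 sections, with both axes in spot pitches; upper layer spots are defined under the comparison of layers. Of the 1627 deep layer spots, 88.5% to 97.6% per section lie in a band beneath the outer band of upper layer spots, and a second cluster of upper layer spots lies beneath the deep band on every section.

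The label was checked against markers that the score did not use, as log2 ratios of summed CPM in members over all other spots, given as mean ± SD over 6 sections. The layer 6 corticothalamic list was higher in members by 1.10 ± 0.08 and the layer 6b list by 1.86 ± 0.42, while the layer 5 list stood at 0.01 ± 0.07, the near-projecting list at 0.45 ± 0.28 (−0.083 when members were chosen by a score of log values) and the upper layer list at −0.58 ± 0.16. Tbr1, Tle4, Hs3st4, Syt6, Garnl3, Zfpm2, Sox5, Sla and Ntsr1 of layer 6 were above 0 on 6 of 6 sections, and Foxp2 on 4 of 6 (mean 0.14 ± 0.36). Of layer 6b, Ccn2, Cplx3 and Nr4a2 were above 0 on 6 of 6 sections, Nxph4 on 5 and Moxd1 on 4, while Svep1 was below 0 on all 6 (−0.98 ± 0.29). Of layer 5, Bcl11b, Crym, Npr3 and Parm1 were above 0 on 6 of 6 sections, but Vat1l, a marker of large layer 5 projection neurons, was below 0 on all 6 with a mean of −1.08 ± 0.30. By these lists layer 6 and layer 6b genes were raised in members and layer 5 genes as a sum were not. These ratios are a description, since the spots were chosen on the same cells.

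The 20 genes with the highest ratio on their lowest section were led by Trbc2 (2.49 ± 0.26), Ccn2 (2.39 ± 0.57), Cplx3 (2.22 ± 0.46) and Hs3st2 (1.99 ± 0.18). Ccn2, a secreted matrix protein, and Cplx3, a complexin, mark layer 6b. Trbc2 and Ighm (1.71 ± 0.20) carry the names of immune receptor chains, the constant regions of the T cell receptor beta chain and of the immunoglobulin mu chain. Trbc2 stood at 88.7, 80.4, 77.6 and 88.4 CPM in the members of the P21 and adult sections and at 51.7 and 56.1 CPM in aged members. Other genes of the 20 were the neuropeptide Grp (1.68 ± 0.32) and the Wnt modulator Rspo2 (1.55 ± 0.18). Several lists for cells that lie elsewhere were lower in members, namely thalamic neurons (−2.32 ± 0.54), dentate granule neurons (−2.03 ± 0.44), striatal neurons (−0.80 ± 0.19), choroid plexus (−3.67 ± 2.19) and meninges (−1.49 ± 0.35). Genes of the claustrum and endopiriform nucleus, which adjoin the deep layers, were higher by 1.15 ± 0.50, and piriform and amygdala genes by 0.35 ± 0.17, both on 6 of 6 sections. The claustrum list holds 3 genes, and Nr4a2, its most abundant, is also in the layer 6b list, so the 2 lists are not separate signals.

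Distance from upper layer spots ordered these marker lists. Members of the main band were split into 3 zones of equal size by their distance from the nearest upper layer spot that had at least 3 adjacent upper layer spots. The median distances were 3.46 to 3.80, 5.29 to 6.25 and 7.55 to 9 pitches. Such upper layer spots were not restricted to the outer band and can lie in the cluster beneath the deep band. The zones are therefore not a strict measure of depth below the outer band. Ccn2 rose from 69.0 to 241 and from 44.2 to 115 CPM between the nearest and the farthest zone at P21, from 100 to 177 and from 125 to 309 in adults, and from 144 to 451 and from 158 to 481 in aged mice. Mbp, the myelin basic protein gene, went from 3776 to 9357 CPM on the first P21 section and from 1158 to 4710 CPM on the first aged section, and was highest in the farthest zone on all 6. The summed layer 5 list was highest in the nearest zone on 6 of 6 sections, as was the near-projecting list, which on the adult sections fell from 752 to 141 and from 783 to 146 CPM. Single layer 5 genes differed, as Parm1 was highest in the nearest zone on 6 of 6 sections, Crym on 2 and Bcl11b on 0. Syt6, a marker of layer 6 corticothalamic neurons, stood at 8.10 to 21.9 CPM in the nearest zone and at 31.1 to 46.0 CPM in the farthest. By summed lists, layer 5 genes were thus highest in the zone nearest to upper layer spots at all 3 ages. Layer 6 genes were highest in the middle or farthest zone, and layer 6b and myelin genes in the farthest.

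**Figure D2:**
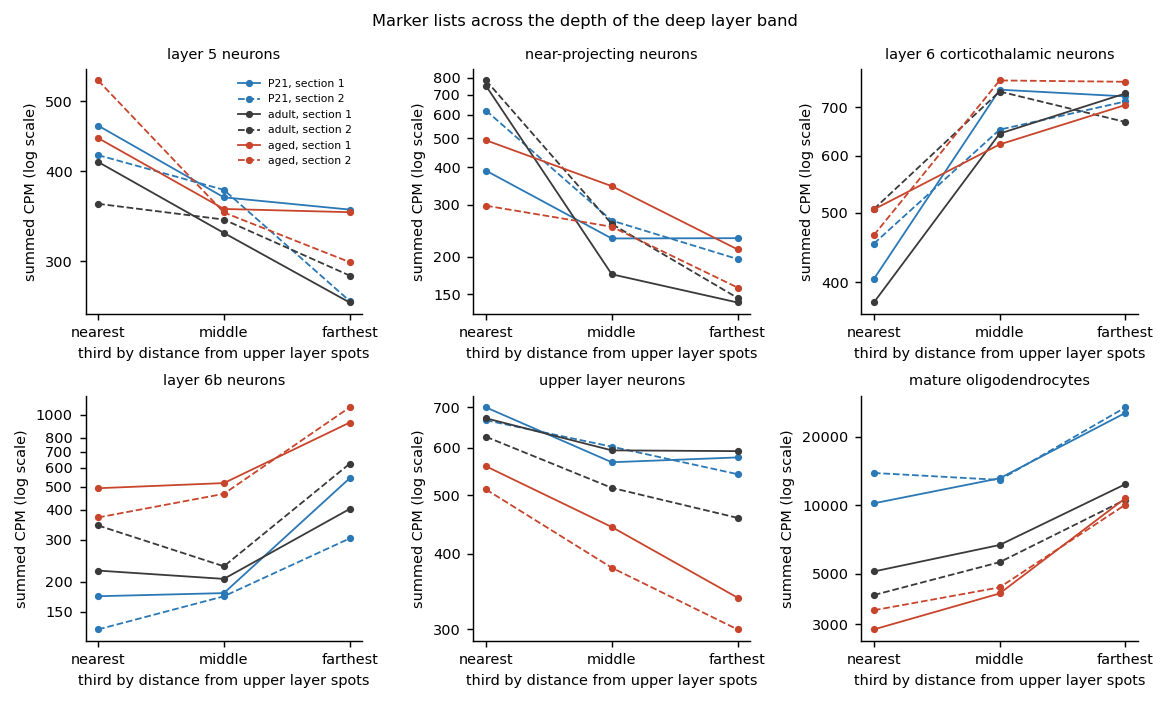
Summed CPM (log axis) of 6 marker lists in the 3 zones of the main band, from the nearest to the farthest from upper layer spots with at least 3 adjacent upper layer spots. Each section has 1 line (blue P21, black adult, red aged, with section 1 solid and section 2 dashed). Layer 5 and near-projecting lists are highest in the nearest zone on 6 of 6 sections, and layer 6b and mature oligodendrocyte lists in the farthest zone on 6 of 6. The upper layer list holds the 5 genes that chose the upper layer spots and so has to be high near them.

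For the comparisons of age, UMIs of the members were summed per section, the 5 score genes were taken out, and sections served as replicates (n = 2 per age). A gene was called different if its fold change passed 1.5 and its Benjamini-Hochberg adjusted p lay under 0.05 in edgeR's quasi-likelihood test. Genes entered a comparison if found in over 10% of member spots at either age. A gene found there at only 1 age had passed through the age where it is high, so counts are also given for genes found in over 10% of spots at both. CPM below are scaled with TMM factors, a correction for differences in RNA composition, and log2 fold changes stand with their standard error. In sums over spots, fewer cells of a type and less RNA per cell cannot be told apart.

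In P21 vs. adult, 8 of 10 mature oligodendrocyte genes and 4 of 13 immature neuron genes were higher at P21. So were both erythrocyte genes found at both ages. Of 11176 genes tested, 379 were higher at P21 (3.39%) and 199 were lower (1.78%). The median log2 fold change over all genes was −0.01. Of the genes tested, 434 passed only through P21 and 78 only through the adults. Among the 10664 found at both ages, 293 were higher and 177 were lower. Neither edgeR nor DESeq2 called any of 10 layer 6 genes (5 at an unadjusted p under 0.05), 4 layer 6b genes (2), 7 cortical excitatory genes (2), 9 interneuron genes (3) or 12 GABA-A receptor genes (5), in a fit with 2878 genes at that unadjusted level. At the shares of calls over all genes, lists this short can hold no call, so these counts do not set deep layer neurons apart. Tbr1 stood at 74.6 and 66.6 CPM at P21, 66.2 and 76.1 on the adult sections and 80.4 and 64.5 on the aged sections, without any separation of ages. Of 9 layer 5 genes, Pou3f1, a POU-domain transcription factor, was higher at P21, with 36.5 and 30.9 CPM against 20.6 and 18.7 in adults (log2 fold change 0.81 ± 0.16, adjusted p = 0.00115). Of 15 glutamate receptor genes only Grin2d, an NMDA receptor subunit of young brain, was called (0.88 ± 0.26), and of 19 ion channel genes only Scn4b, a sodium channel beta subunit, which was lower at P21 (−0.78 ± 0.18). Of 20 synaptic vesicle and axon genes, Nefm, the medium neurofilament subunit, was higher (0.64 ± 0.12). These single calls were not firm: each was lost without 1 section, Pou3f1 without the first P21 section (0.65), Grin2d without either P21 section (0.65 and 0.97) or the second adult section (0.53), Scn4b without the second P21 (−0.57) or the first adult section (−0.39), and Nefm without the second adult section (0.43). The count of all called genes fell from 578 to 374 without the second adult section.

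Myelin genes were the most abundant transcripts that differed. Of 10 mature oligodendrocyte genes 8 were higher at P21, with a median log2 fold change of 1.24, and of 7 genes of newly formed oligodendrocytes 5 were higher, and 4 of the 6 found at both ages. Mbp stood at 6082 and 7159 CPM at P21, 3425 and 2962 on the adult sections and 2403 and 2587 on the aged sections. Both P21 sections lay above all 4 older sections, and the log2 fold change was 1.05 ± 0.09 (adjusted p = 9.72e-09). Cldn11, the claudin of myelin tight junctions, was 3.88-fold higher (1.96 ± 0.11). Ermn and Aspa, which are known from mature oligodendrocytes, were not called (0.03 and −0.26).

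Gpr17, a receptor of oligodendrocytes at the step between precursor and myelinating cell, stood at 60.8 and 73.8 CPM at P21 and at 17.3 and 15.2 and 10.5 and 11.2 in the older groups (4.06-fold, 2.02 ± 0.15). The P21 and adult sections did not overlap. Enpp6 (1.39 ± 0.17), Tspan2 (1.52 ± 0.09), Bmp4 (1.63 ± 0.34) and Tmem163 (0.61 ± 0.11) were the other called genes of that stage. Bmp4 passed the detection limit only through P21, and it lost its call without the first P21 section (1.66). Of 6 precursor genes, Sox10, which all cells of the lineage express (1.19 ± 0.14), and Vcan were higher, while Pdgfra, the defining receptor of precursors, did not pass (0.38 ± 0.14, adjusted p = 0.0854). The summed mature oligodendrocyte list was 16647 and 18704 CPM at P21 against 8069 and 6833 in adults, and the median of 1.24 stood beside 1.35 in upper layer spots and 1.0 in all spots outside the members. Of 17 sterol synthesis genes, Lss, Mvd and Cyp51 were higher, with log2 fold changes of 0.86, 0.73 (not called without the first P21 section, 0.63) and 0.72, and 5 were higher without the first adult section.

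Genes of growing neurons formed a smaller group. Marcksl1 (chr4:129513581-129515985, GRCm38), which binds actin and calmodulin at the membrane of growing processes, stood at 246 and 245 CPM at P21, 56.1 and 58.3 on the adult sections and 43.9 and 36.1 on the aged sections. The P21 sections were 4.30-fold above the adult sections (2.10 ± 0.11, adjusted p = 1.53e-12), with no overlap. Sox4 (1.36 ± 0.19), Dpysl5 (0.93 ± 0.14) and Cd24a (1.17 ± 0.27) completed the 4 called of 13 immature neuron genes. Dcx, the doublecortin gene, was not called, with 41.5 and 43.9 CPM at P21 and 45.4 and 47.9 in adults. Of 23 axon guidance genes, Nrp1, a semaphorin receptor, was higher (0.82 ± 0.17), though not without the first P21 section (0.80).

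Perineuronal net genes moved in both directions, with 3 higher and 2 lower among 8 tested, and among the 7 found at both ages. Hapln1, a link protein that ties hyaluronan to proteoglycans, stood at 28.0 and 30.9 CPM at P21 against 14.2 and 11.1 in adults (1.20 ± 0.19), and the proteoglycans Ncan (0.80 ± 0.10) and Vcan (0.71 ± 0.19) were higher as well. Hapln4 was lower at P21, with 121 and 103 CPM against 196 and 174 (−0.71 ± 0.11), as was Hapln2, the link protein of nodes of Ranvier (−0.74 ± 0.17). The P21 sections thus had more Hapln1 and less Hapln2 and Hapln4. The call of Hapln2 was lost without the first P21 (−0.83) or the first adult section (−0.59), and that of Vcan without the second P21 (0.59) or the first adult section (0.54).

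The genes with the largest fall at P21 were led by Il33 (chr19:29925114-29960718), an alarmin cytokine kept in glial nuclei. It stood at 11.8 and 8.58 CPM at P21, 80.7 and 72.8 on the adult sections and 48.4 and 48.3 on the aged sections, 7.05-fold lower at P21 than in adults (−2.82 ± 0.15, adjusted p = 2.09e-12). Hsf4, a heat shock factor (−2.13 ± 0.21), Klk6, a secreted protease of oligodendrocytes (−1.88 ± 0.27), and Ptgds, the prostaglandin D2 synthase gene (−1.59 ± 0.13), followed. Ptgds stood at 66.9 and 75.1 CPM at P21 and 243 and 178 in adults, with no overlap.

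Of 14 immediate early genes, which neuronal activity switches on within minutes, Arc, Egr1, Junb, Fos and Dusp1 were lower at P21. Arc, which controls AMPA receptor removal at synapses, stood at 63.8 and 67.6 CPM at P21 and at 233 and 114 in adults (−1.41 ± 0.19, adjusted p = 1.21e-05). The adult sections differed from each other more than the P21 sections did, also for Fos (16.4 and 6.22 CPM in adults, 5.98 and 4.80 at P21). The count fell from 5 to 3 without the first adult section, and likewise without the first P21 section.

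Blood and meningeal genes differed with age in the same spots. Of erythrocyte genes 4 were tested and higher at P21, but Hbb-bt and Alas2 passed only through P21, which leaves 2 of 2 found at both ages. Their summed level was 1937 and 1056 CPM at P21, 156 and 180 on the adult sections and 82.7 and 148 on the aged sections, with none at 0. The most abundant, Hbb-bs, stood at 1302 and 715 CPM at P21 and 100.2 and 114 in adults (3.25 ± 0.23), and reads of the globin genes could be split among near-identical copies. Of meningeal genes, Col1a2 and Igf2 were higher at P21, as was Col1a1, which passed only through P21, with summed list levels of 63.6 and 61.1 CPM against 38.1 and 30.4, and Eln, the elastin gene, was 6.64-fold higher. Only 1 of the 3 was called without the second adult section, where Col1a2 (0.84) and Igf2 (0.44) were lost, and Igf2 was also lost without the first P21 section (0.37). Genes known from other regions were also higher at P21, namely Plekhg1 and Prkcd of 5 thalamic genes, Ttr of 2 choroid plexus genes, and Pmch. The call of Plekhg1 was lost without the first P21 (0.71) or the second adult section (0.52). That of Ttr was lost without the second P21 (0.33) or the second adult section (0.41). The part of blood, meninges and these transcripts in the other differences was not tested. Of 7 endothelial genes 2 were higher, Cldn5 (0.78 ± 0.13) and the VEGF receptor gene Kdr (1.20 ± 0.22).

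**Figure D3:**
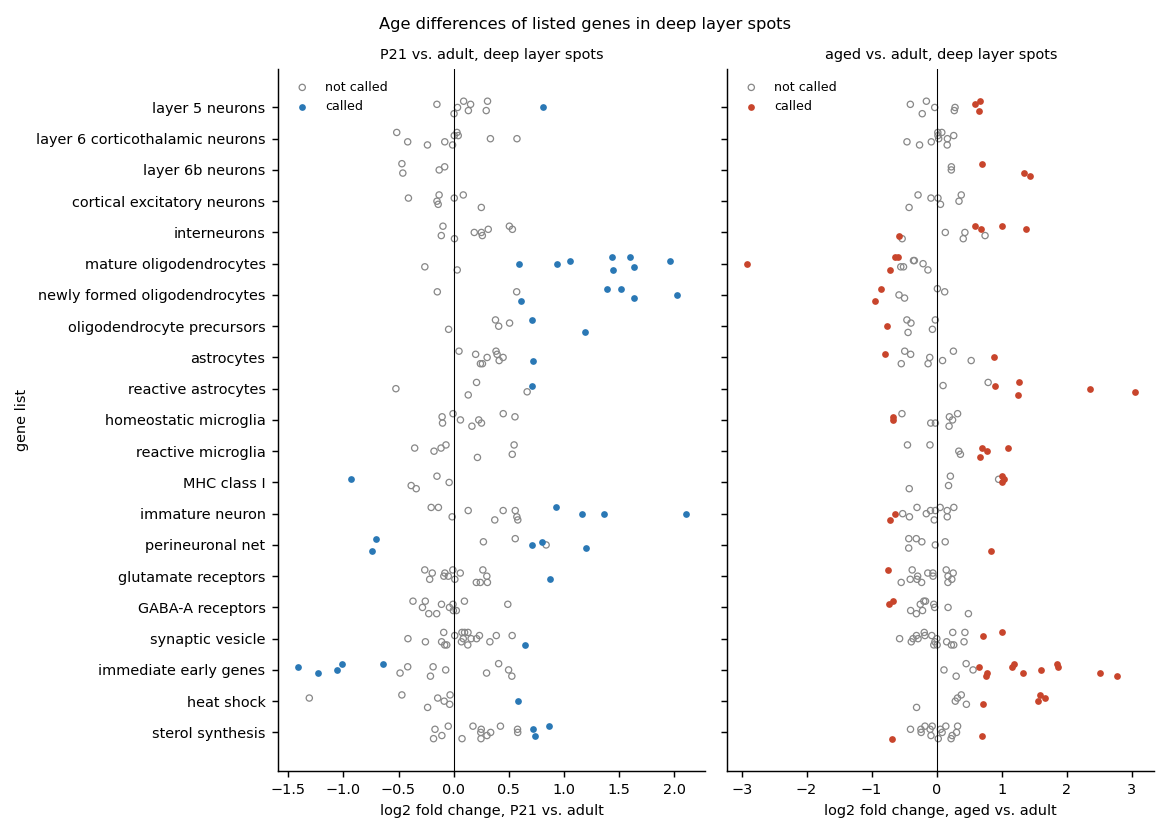
Log2 fold changes of the tested genes of 21 lists in deep layer spots, P21 vs. adult on the left and aged vs. adult on the right, with 1 point per gene (filled, called; open, not called; a point above 0 is higher than in adults) and genes spread vertically for legibility. At P21, 8 of 10 mature oligodendrocyte genes and 5 of 7 newly formed oligodendrocyte genes are called higher, and in aged mice 11 of 15 immediate early genes and 5 of 7 reactive astrocyte genes, counts that include genes found in over 10% of spots at 1 age only.

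In aged vs. adult, 848 of 11813 genes were higher in aged mice (7.18%) and 417 were lower (3.53%), with a median log2 fold change of 0.00, and 1071 genes passed only through the aged and 13 only through the adult sections. Of the 10729 genes found in over 10% of spots at both ages, 670 were higher in aged mice and 401 were lower. The slide version and probe design changed together with age in this comparison. Every difference below is therefore one between aged v2 sections and adult v1 sections. The 12 largest rises among genes at 10 CPM or more included C4b and Serpina3n of the reactive astrocyte list and the immediate early genes Egr1, Egr2, Fos and Fosb, beside Hif3a, Hspa1b, Rasl11a, Sik1, Trib2 and Zfp60. Of 10 layer 6 genes, edgeR and DESeq2 called 0, with 2 at an unadjusted p under 0.05 and a median log2 fold change of 0.03. At the shares of calls over all genes, a list this short can hold no call, so this count does not set layer 6 genes apart.

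C4b (chr17:34728380-34743882), a complement component made by reactive astrocytes and oligodendrocytes, stood at 7.67 and 8.58 CPM at P21, 12.6 and 10.1 on the adult sections and 104 and 86.3 on the aged sections. Both aged sections lay far above the other 4, 8.30-fold over adults (3.05 ± 0.15, adjusted p = 4.45e-13), though C4b and its copy C4a are alike enough that probes could read both. Serpina3n (chr12:104406729-104414329), a secreted protease inhibitor, went from 4.87 and 5.76 to 24.8 and 29.9 CPM (2.37 ± 0.22), again without overlap. Gfap, the intermediate filament of astrocytes, stood at 92.6 and 91.0 CPM in adults and 222 and 219 on the aged sections (1.26 ± 0.10). With Vim (0.89 ± 0.17) and the cytokine receptor gene Osmr (1.26 ± 0.31), 5 of 7 reactive astrocyte genes tested were higher. Of these 7, Serpina3n, Osmr and Cd44 passed only through the aged sections, and of the 4 found at both ages 3 were higher, with a median of 1.08. Lcn2 and Timp1, 2 other markers of reactive astrocytes, stayed under 1 CPM on every section and were not tested.

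Astrocyte genes as a whole did not move together. Of 10, Fgfr3 was higher in aged mice (0.89 ± 0.11) and Gja1, the main gap junction protein of astrocytes, was lower, with 192 and 209 CPM in adults against 123 and 108 on the aged sections (−0.80 ± 0.11). Slc1a2, the main glutamate transporter, stood at 1656 and 1654 CPM in adults and 1900.0 and 1628 on the aged sections and was not called. The summed astrocyte list was 3099 and 2987 CPM on the adult sections and 3355 and 3046 on the aged sections.

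Of 8 reactive microglia genes, Spp1 (1.10 ± 0.21), Gpnmb (0.77 ± 0.26), Trem2 (0.69 ± 0.18) and Apoe (0.66 ± 0.09), which astrocytes express as well, were higher, with Gpnmb passing only through the aged sections (3 of 7 found at both ages). Itgax, Cst7 and Ccl3 stayed under 3 CPM and were not tested. Without the members that held the most myelin RNA, only 1 of the list was called, and 2 without the first adult or the second aged section. Gpnmb was lost without either adult section (0.86 and 0.68) or the second aged section (0.70), Trem2 without the first adult (0.62) or the first aged section (0.55), and Apoe without the second aged section (0.55). Of 9 homeostatic microglia genes, Siglech (−0.67 ± 0.16) and P2ry13 (−0.66 ± 0.23) were lower, with the call of P2ry13 lost without the second adult (−0.32) or the second aged section (−0.58), while Tmem119 and Cx3cr1 were not called (0.25 and −0.02). The summed homeostatic list was 296 and 315 CPM on the adult sections and 323 and 314 on the aged sections. Antigen presentation genes of class I were higher in part, namely H2-K1 (1.03 ± 0.23), H2-D1 (1.01 ± 0.20) and the immunoproteasome subunit Psmb8 (1.0 ± 0.30) of 7 tested (2 of 5 found at both ages, without Psmb8), of which DESeq2 called 1, and reads of H2 genes could come from related copies. B2m, the light chain that all class I molecules share, did not pass (0.21 ± 0.10).

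Of 15 immediate early genes 11 rose in aged mice, and 10 of the 14 found at both ages, with a median of 0.97 over the 14, while Egr2 passed only through the aged sections. Their summed level was 515 and 505 CPM at P21, 902 and 611 on the adult sections and 2436 and 2257 on the aged sections, most of it from Egr1, a zinc finger transcription factor. Egr1 stood at 229.5 and 151 CPM in adults and 1122 and 1065 on the aged sections (5.74-fold, 2.52 ± 0.13, adjusted p = 4.45e-13). Fos went from 16.4 and 6.22 to 40.1 and 42.1 CPM (1.85 ± 0.21), Fosb from 9.31 and 11.1 to 36.2 and 38.3 (1.87 ± 0.17) and Arc from 233 and 114 to 585 and 477 (1.61 ± 0.17). The aged sections did not overlap with the adult sections for any of these 4 genes. Npas4, which calcium entry induces selectively in neurons, stood at 10.6 and 5.30 CPM in adults and 11.2 and 15.9 on the aged sections (0.77 ± 0.25), a smaller gap than for Fos. Junb, Btg2, Ier2 and Bdnf were not called.

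The promoters of 4 of these genes are shown because transcription after activity is what defines the list. Each runs from 250 bases before to 50 bases after the RefSeq transcription start on GRCm38.p6, with TGACG or its reverse complement CGTCA in capitals, the core of the cyclic AMP response element bound by CREB-family factors.
Fos, chr12:85473640-85473939, plus strand: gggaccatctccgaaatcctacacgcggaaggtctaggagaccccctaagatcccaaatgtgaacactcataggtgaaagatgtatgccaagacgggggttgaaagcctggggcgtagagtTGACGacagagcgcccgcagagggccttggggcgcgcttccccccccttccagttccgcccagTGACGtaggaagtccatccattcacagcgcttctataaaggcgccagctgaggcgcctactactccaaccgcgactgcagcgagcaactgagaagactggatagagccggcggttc
Fosb, chr7:19309996-19310295, minus strand: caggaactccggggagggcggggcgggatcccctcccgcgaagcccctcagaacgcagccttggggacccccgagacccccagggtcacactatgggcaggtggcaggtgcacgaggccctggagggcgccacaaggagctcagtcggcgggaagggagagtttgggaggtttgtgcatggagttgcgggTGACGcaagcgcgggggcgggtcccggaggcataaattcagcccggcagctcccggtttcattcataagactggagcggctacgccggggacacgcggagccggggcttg
Npas4, chr19:4989922-4990221, minus strand: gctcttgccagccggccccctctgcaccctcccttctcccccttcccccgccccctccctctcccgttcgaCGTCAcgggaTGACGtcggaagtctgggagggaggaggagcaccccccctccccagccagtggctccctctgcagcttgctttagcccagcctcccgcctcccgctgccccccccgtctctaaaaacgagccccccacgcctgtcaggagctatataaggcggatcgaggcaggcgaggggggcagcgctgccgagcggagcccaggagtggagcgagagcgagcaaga
Dusp1, chr17:26508423-26508722, minus strand: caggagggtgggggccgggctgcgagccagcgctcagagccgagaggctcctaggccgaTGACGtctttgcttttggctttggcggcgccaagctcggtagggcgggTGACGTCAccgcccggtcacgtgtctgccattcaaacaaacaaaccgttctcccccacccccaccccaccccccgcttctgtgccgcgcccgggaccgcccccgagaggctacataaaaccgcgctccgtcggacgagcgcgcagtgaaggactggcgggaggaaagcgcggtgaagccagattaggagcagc
Of the 15 listed genes, 11 had at least 1 promoter in the RefSeq table, and 10 of them held TGACG on either strand in at least 1 promoter (12 of 21 promoters). Over all 32851 promoters of the same length, 20.8% held it, a share per promoter to be set beside the 12 of 21. The share of all genes with a match in at least 1 promoter was not computed, so the count of 10 genes has no background. The 4 promoters shown are among those with a match. The full palindrome TGACGTCA, which contains the core, was in 2 of the 21 and in 1.79% of all. A CArG box, the site of serum response factor, was in 4 of the 21, all of Egr2, and in 1.63% of all. These are matches of letters and not measured binding.

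Heat shock genes were also higher in aged mice, 4 of 9 by edgeR (3 of the 8 found at both ages, without Hspb1) and 2 by DESeq2, led by Hspa1b. It stood at 14.6 and 14.1 CPM in adults and at 69.7 and 23.2 on the aged sections (1.66 ± 0.33), so the aged sections differed from each other by more than the second of them differed from the adults. Hspa1a (1.59 ± 0.26), Hspb1 (1.56 ± 0.40) and Hspa5, the chaperone of the endoplasmic reticulum (0.72 ± 0.13), were the others, and without the first aged section the count fell to 2. Sik1, a kinase gene that cyclic AMP induces, rose 3.89-fold (12.4 and 11.8 to 47.2 and 46.9 CPM), and Trib2, a pseudokinase gene, 3.83-fold. For these genes, as for the immediate early genes, slide version and age cannot be told apart.

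Of 5 layer 6b genes tested, 3 were higher in aged mice by edgeR and 1 by DESeq2. Nr4a2, a nuclear receptor that marks layer 6b and claustrum and that activity also induces, stood at 58.4 and 55.2 CPM at P21, 59.6 and 98.2 on the adult sections and 245 and 184 on the aged sections (1.44 ± 0.15, adjusted p = 1.9e-07). Ccn2 (chr10:24595442-24598683) stood at 127 and 77.9, 118 and 177 and 242 and 235 CPM (0.69 ± 0.15, adjusted p = 0.00118). The aged sections were the highest for both, but the call for Ccn2 was lost without the first adult section, at 0.42. Moxd1, which passed only through the aged sections, was higher as well (1.34 ± 0.32), while Cplx3 (0.23 ± 0.15) and Nxph4 (0.23 ± 0.20) were not called. In the zone farthest from upper layer spots, where layer 6b genes were highest, the summed list stood at 403 and 623 CPM in adults and at 925 and 1071 in aged mice.

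Of 9 layer 5 genes, Bcl11b, the zinc finger factor also known as Ctip2, stood at 30.6 and 32.3 CPM in adults and 54.8 and 45.2 on the aged sections (0.66 ± 0.13). Bcl6 (0.65 ± 0.12) and Deptor (0.59 ± 0.22) were called higher too, but the calls were lost for Bcl11b without the first aged section (0.53), for Bcl6 without the second (0.54) and for Deptor without any 1 of 5 sections (0.23 to 0.61). Only 1 of the 9 was called without either aged section. Interneuron genes split. Npy, a neuropeptide of several interneuron classes, went from 229 and 184 to 582 and 494 CPM (1.38 ± 0.11), Gad1 from 39.2 and 30.7 to 70.9 and 70.4 (1.01 ± 0.13) and Gad2 from 169 and 133 to 257 and 228 (0.68 ± 0.10). Vip was higher as well (0.60 ± 0.17). Pvalb, the calcium buffer of fast-spiking basket cells, stood at 260.1 and 179 CPM in adults and 112 and 179 on the aged sections (−0.59 ± 0.15), where the second aged section equalled the second adult section, and the call was lost without the first adult (−0.30) or the first aged section (−0.29). Slc32a1, the vesicular GABA transporter that all these cells use, was not called (0.13 ± 0.14).

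Synaptic genes are given singly, since 7.18% of all genes tested were higher and 3.53% lower in aged mice. At those shares, lists of these lengths can hold a few calls, so the counts do not set synaptic genes apart. Of 12 GABA-A receptor genes 2 were lower, among them Gabrd (−0.74 ± 0.13), which was not called without the first adult section (−0.48). Of 15 glutamate receptor genes only Grik1, a kainate receptor subunit, was called (−0.75 ± 0.15). Of 20 synaptic vesicle and axon genes, Syt1, the calcium sensor of release, was higher, with 353 and 333 CPM in adults and 833 and 551 on the aged sections (1.01 ± 0.12), and so was Sv2c (0.71 ± 0.17), the latter not without the second adult section (0.60). Of 23 guidance genes, Nrp1 was higher (0.72 ± 0.16) and Ntn1 (−0.84 ± 0.21), Ntng1 (−0.74 ± 0.15) and Robo1 (−0.71 ± 0.14) were lower, with the call of Nrp1 lost without the second aged section (0.54) and that of Ntn1 without the first adult (−0.74) or the second aged section (−0.57). Slc17a7, the vesicular glutamate transporter of cortical neurons, stood at 2984 and 3397 CPM in adults and 2754 and 2482 on the aged sections (−0.29 ± 0.09), under the fold limit. Of 19 ion channel genes edgeR and DESeq2 called 0 in aged vs. adult, with 6 at an unadjusted p under 0.05. A list of this length can hold no call at the shares over all genes, so this count does not set ion channel genes apart.

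Myelin genes fell in part. Of 10 mature oligodendrocyte genes 4 were lower in aged mice, with a median of −0.53, and their summed level was 8069 and 6833 CPM on the adult sections and 5573 and 5466 on the aged sections. Opalin, a glycoprotein of the myelin paranode, stood at 153 and 184 CPM at P21, 123 and 97.5 on the adult sections and 13.3 and 15.6 on the aged sections (7.58-fold lower, −2.92 ± 0.14), a far larger gap than those of Mag (−0.72 ± 0.10) and Cnp (−0.64 ± 0.10). Mbp was within the fold limit (−0.36 ± 0.09). The count of 4 fell to 1 without the first adult section, where Mag stood at −0.54 and Cnp at −0.52. Cnp also lost its call without the second aged section (−0.57). Enpp6 (−0.86 ± 0.20) and Tspan2 (−0.94 ± 0.09) of newly formed oligodendrocytes were lower, and Gpr17, with −0.58 ± 0.18, had an adjusted p of 0.0162 in the same test and a 1.49-fold decrease, just under the limit.

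**Figure D4:**
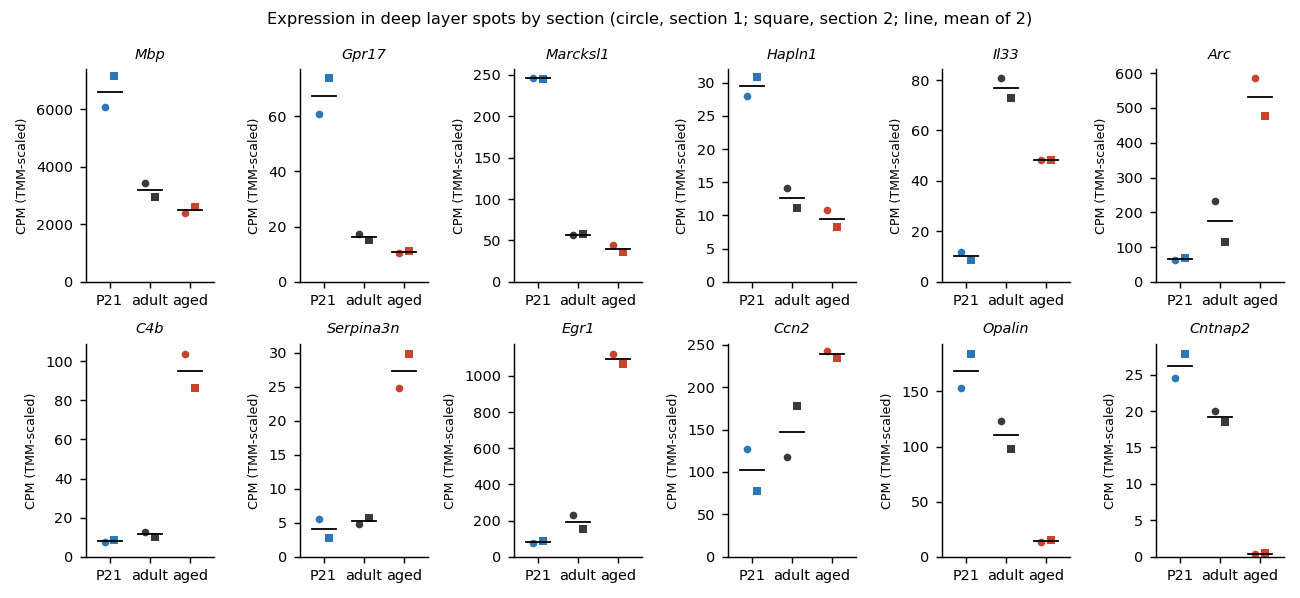
TMM-scaled CPM of 12 genes in deep layer spots, with 1 symbol per section (circle, section 1; square, section 2), a line at the mean of 2 sections and 1 linear axis per gene that starts at 0. C4b, Serpina3n and Egr1 are highest on both aged sections, Marcksl1, Gpr17 and Mbp on both P21 sections, Il33 on both adult sections, and Cntnap2 is under 1 CPM on both aged sections.

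Some of the largest falls in aged mice were of similar size outside the members. Cntnap2, a cell adhesion gene of the axon, stood at 24.5 and 27.8 CPM at P21, 19.9 and 18.4 on the adult sections and 0.343 and 0.501 on the aged sections (−5.41 ± 0.30), and it was lower in upper layer spots (−5.48 ± 0.41) and in all spots outside the members (−5.51) too. Opalin was lower in the upper layers (−3.38 ± 0.17) and outside the members (−2.91) as well. For these genes, as for all others in this comparison, probe design and age cannot be told apart.

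Other falls were smaller or absent outside the members. Ttr, the defining transcript of the choroid plexus, stood at 484 and 847 CPM at P21, 496 and 272 on the adult sections and 23.7 and 25.6 in aged members (−3.96 ± 0.23), against a log2 change of −0.09 in the spots outside. Clic6, the other choroid plexus gene tested, passed only through the adult sections and was also lower, and the summed list of 5 genes, none of them at 0, was 494 and 866 CPM at P21, 509 and 283 on the adult sections and 27.4 and 30.7 on the aged sections. Pmch, a neuropeptide of the lateral hypothalamus, stood at 121 and 107, 3.77 and 35.7 and 1.03 and 0.25 CPM (−5.03 ± 0.67), with 0.19 outside. Prkcd (−1.86 ± 0.14), a thalamic marker, and Zic1 (−1.58 ± 0.20) had values of −0.17 and −0.01 outside. These transcripts are known from cells of other regions. Their levels in members were lower on both aged sections, whose RNA reached the slide through another instrument, and instrument and age cannot be told apart. Of the meningeal genes, Col1a2 (−1.35 ± 0.29) and Igf2 (−0.88 ± 0.21) were also lower in aged members, but neither without the first adult section (−0.78 and −0.65).

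Endothelial genes also differed, with Cldn5 lower (57.6 and 44.3 CPM in adults, 23.4 and 20.5 on the aged sections, −1.22 ± 0.14), Tek and Cdh5 lower (−0.96 and −0.68) and Flt1 higher (0.69 ± 0.14). The count of 3 lower fell to 1 without the first adult section, where Tek stood at −0.71, and the call of Flt1 was lost without the first aged section (0.58). Met, a receptor tyrosine kinase of cortical projection neurons, went from 11.3 and 11.3 to 2.97 and 3.17 CPM (−1.87 ± 0.24).

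The comparisons of P21 and of aged mice used the same 2 adult sections, so their results are set side by side only. Il33, for example, was lower at both ages than in adults (−2.82 and −0.67), Nrp1 was higher at both (0.82 and 0.72), and Mag and Cnp were higher at P21 and lower in aged mice. Egr1 and Arc were lower at P21 and higher in aged mice.

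To ask which differences belonged to the deep layers, the members were compared with upper layer spots of the same sections. These were the 8% of spots with the highest score of Cux2, Rasgrf2, Lamp5, Stard8 and Otof that were not deep members, 1601 in all, and they include a cluster beneath the deep band and scattered ventral spots as well as the outer band. The outer band held 177 of 285 and 153 of 257 of them at P21, 113 of 231 and 151 of 254 on the adult sections and 161 of 291 and 180 of 283 on the aged sections, so the upper layer values below are those of a mixed set. A model of 12 sums held each section as a block, so that a factor that changes a gene alike in both layers of a section drops out. A probe or slide effect that differs between layers does not. A difference was called at an adjusted p under 0.05 for the term of layer by age.

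In P21 vs. adult, 6 of 11277 genes were called (0.0532%), and the myelin and growth genes were not among them. Fkbp1a, a prolyl isomerase that binds calcium release channels, had a log2 fold change of 0.03 ± 0.08 in deep spots and −0.43 ± 0.09 in upper spots, a difference of 0.48 ± 0.07 (adjusted p = 0.000691). Wfs1, an endoplasmic reticulum protein of upper layer and CA1 neurons, differed by 0.73 ± 0.13, Gucy1a1, a subunit of the nitric oxide receptor, by 0.69 ± 0.12, Ddn, dendrin, by 0.41 ± 0.09, Nap1l5 by −0.42 ± 0.07 and Tnnc1, a troponin C gene, by −1.35 ± 0.28. In the last the upper spots had the larger rise at P21 (2.20 ± 0.27 against 0.90 ± 0.19 in deep spots). At an unadjusted p under 0.05 the test had 793 genes. DESeq2 called 1, edgeR called 0 without the first P21 or the second adult section and 1 without the second P21 section, and 18 to 31 when the first adult section or an aged section was left out. Marcksl1 had 1.92 ± 0.10 in upper spots and 2.10 ± 0.11 in deep spots, and Mbp 1.21 ± 0.13 and 1.05 ± 0.09.

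In aged vs. adult, 562 of 11997 genes were called (4.68%), 273 with a more positive change in deep spots and 289 with a more negative one. The count was 221 without the first adult, 329 without the second adult and 313 without the second aged section. It was 101 with DESeq2, 146 without the detection filter, 222 with a score of log values and 338 with counts thinned to equal totals. Apod, a lipocalin of glia and vessels, stood at 345 and 267 CPM in adult and 591 and 622 in aged deep spots (0.98 ± 0.10), against −0.01 ± 0.14 in upper spots (difference 1.0 ± 0.08, adjusted p = 1.07e-10). C4b rose by 3.05 in deep and 1.37 in upper spots (difference 1.68 ± 0.19), Serpina3n by 2.37 and 0.95 (difference 1.44 ± 0.30) and Gfap by 1.26 and 0.40 (difference 0.87 ± 0.10). The rises of C4b and Gfap were thus larger in deep than in upper layer spots, beyond the spread between sections. Serpina3n passed the detection limit in deep spots only through the aged sections, so its values are given without that conclusion. Outside the members the log2 fold changes of C4b, Serpina3n and Gfap were 2.84, 2.50 and 0.79.

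Myelin genes had less negative changes in the deep than in the upper layers. Of 10 mature oligodendrocyte genes 7 had a called difference, all 7 more positive in deep spots, with medians of −0.53 in deep and −1.04 in upper spots. Fewer than 7 were called without the detection filter, with the count given below under the dependence on processing. Mbp had −0.36 ± 0.09 in deep and −0.98 ± 0.13 in upper spots (difference 0.64 ± 0.07), Mobp −0.21 and −0.91 (difference 0.71 ± 0.08), and Tmem163 of newly formed oligodendrocytes −0.49 and −2.23 (difference 1.74 ± 0.17). Of the layer 6b genes Ccn2 rose in deep spots and stood at −0.80 ± 0.20 in upper spots (difference 1.54 ± 0.20), and Cplx3 differed by 0.66 ± 0.18.

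Some ion channel genes had more negative changes in the deep than in the upper layers. Of 19 ion channel genes 7 had a more negative change in deep spots, among them Scn1a, Scn4b, Kcna1, Kcnc1 and Kcnab3. Kcnab3, a potassium channel beta subunit, stood at 73.1 and 44.3 CPM in adult and 33.8 and 48.2 in aged deep spots, with −0.51 ± 0.17 there and 1.09 ± 0.22 in upper spots (difference −1.60 ± 0.13, adjusted p = 1.07e-10). Scn1a, the sodium channel of fast-spiking interneurons, had 0.20 and 0.97 (difference −0.77 ± 0.09), and Pvalb −0.59 and 0.21 (difference −0.79 ± 0.09). The count of 7 fell to 4 without the first adult section or with DESeq2 and to 3 with a score of log values, and the other 12 had no called difference.

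Of 15 immediate early genes, Arc, Egr1, Nr4a1 and Dusp1 rose less in deep than in upper spots and Egr4 rose more. Arc rose by 1.61 and 2.41 (difference −0.80 ± 0.09), and Egr1 by 2.52 and 2.87 (difference −0.35 ± 0.08), so the rise of these genes was not particular to the deep layers. The count of 4 fell to 1 without the second adult section and to 2 without the first adult or the first aged section.

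Of 4 piriform and amygdala genes, all 4 had a more positive change in deep spots, namely Cyp26b1 (difference 2.18 ± 0.30), Rspo2 (1.35 ± 0.26), Nr2f2 (1.25 ± 0.22) and Lmo3 (0.59 ± 0.10), and Gnb4 of the claustrum list differed by 1.38 ± 0.14. Gnb4 had 0.12 in deep and −1.27 in upper spots, and Cyp26b1 0.58 and −1.55. Piriform cortex lies ventral to the neocortex, where scattered spots of the upper layer set also lie. Pmch had the difference −4.39 ± 0.36, which became −0.63 without the first aged section and 0.95 when both layers were restricted to their main bands. Between those main bands 518 genes were called in aged vs. adult, which included 383 of the 562, and 46 in P21 vs. adult, which included 4 of the 6. There the differences of C4b (2.08), Serpina3n (2.10), Gfap (0.67), Apod (1.09), Mbp (0.51), Ccn2 (1.48), Kcnab3 (−1.58), Scn1a (−0.69), Pvalb (−0.78), Arc (−0.93), Egr1 (−0.46) and Gnb4 (1.498) were called. Those of Cyp26b1 (1.43), Rspo2 (1.16), Nr2f2 (0.49), Lmo3 (0.23) and Cplx3 (0.65) were not, so none of the 4 piriform and amygdala genes kept its call between the main bands.

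**Figure D5:**
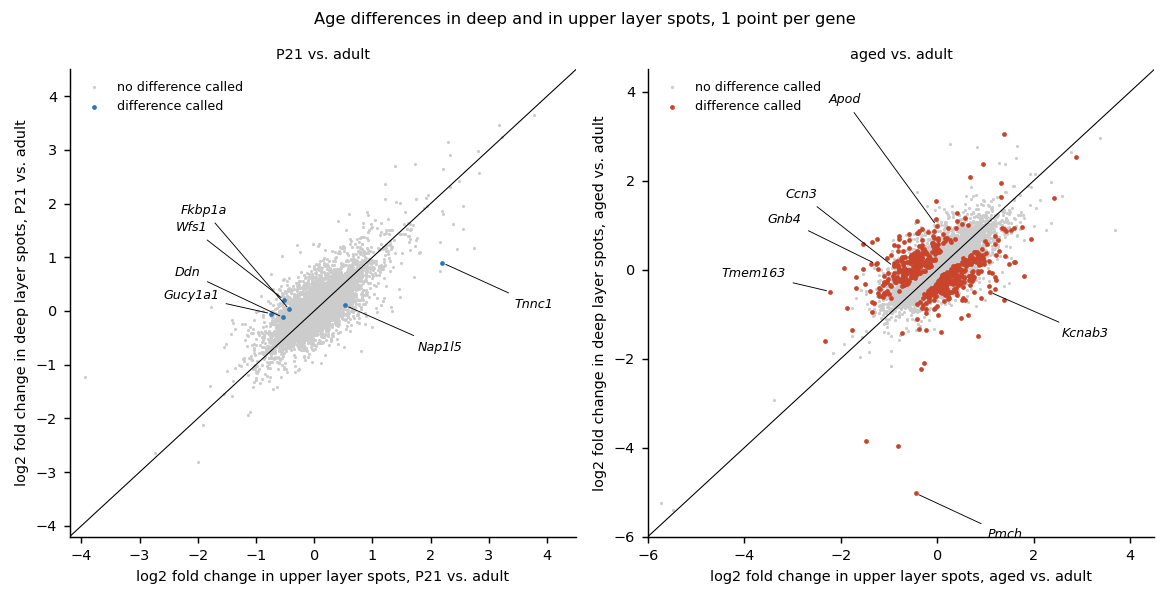
Log2 fold change in deep layer spots (vertical axis) against that in upper layer spots (horizontal axis), P21 vs. adult on the left and aged vs. adult on the right, with 1 point per gene tested, a line of equal change and coloured points where the difference between layers was called. In P21 vs. adult 6 genes leave the line by the test and in aged vs. adult 562, on both sides of it.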

How the data were processed

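Deposited Visium matrices of 6 sections gave raw UMI counts per gene and spot (19465 genes), made by the authors with Space Ranger from 10x mouse probes on mm10. Per the file headers, P21 and adult sections were counted with release 2.0.0 and aged sections with 3.1.1, while the labels list 2.1.0. Barcodes name slide positions, and P21 and adult files shared 2607 to 2992 of them by pair, the aged pair 3363 and aged and other files 0. No doublet caller was run. Member spots, gene lists and tests were chosen with earlier results of these data known. Counts were summed per section over spots with at least 500 UMIs and tested with edgeR 4.0.16 (R 4.3.3; TMM, filterByExpr, glmQLFit, glmQLFTest over all 6 sections, Benjamini-Hochberg), for genes found in over 10% of member spots at either age. The comparison of layers fitted 12 sums with section, layer and layer by age. The genes named were, per age comparison, the 12 largest called rises and falls among genes at 10 CPM or more, per list the 2 largest called changes each way and the most abundant member, the layer 5, 6, 6b and near-projecting lists, genes the study names, and the 6 with the smallest p between layers. The tests were also run on simulated counts, drawn with a fixed spread and, for layers, without a shared effect of the section. That run does not measure how the tests behave on the real sections.

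Alternatives were DESeq2 1.42.0, glmTreat, library totals, other filters, the top 5% or 12% of spots, a score of log values, members with adjacent members, members without the 25% richest in myelin RNA, counts thinned to equal totals, each section left out and, added after seeing the data, the main band. Replicate numbers did not pair sections, as deviations of equal numbers had correlations of 0.017, −0.032 and −0.064. The 2 sections of an age were separate mice, and the precision is limited by that number. Section images, spot scale factors and the authors' other tables were not used. Some single genes that the rule would name are not reported here.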

Additional observations from a re-analysis of the deposited data

Results flagged for a closer look

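For 6 genes in P21 vs. adult the change in deep layer spots differed from that in upper layer spots by the layer by age term of edgeR's quasi-likelihood test. The differences (deep minus upper, log2) were 0.48 for Fkbp1a, 0.73 for Wfs1, 0.69 for Gucy1a1, 0.41 for Ddn, −0.42 for Nap1l5 and −1.35 for Tnnc1. Wfs1 had log2 fold changes of 0.21 in deep and −0.52 in upper spots, and Gucy1a1 of −0.05 and −0.74. All 6 calls were lost without the first P21 or the second adult section, and their signs stayed.

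In aged vs. adult the named differences between layers with the smallest adjusted p were 1.0 for Apod, −1.60 for Kcnab3, −4.39 for Pmch, 1.74 for Tmem163, 0.99 for Ccn3 and 1.38 for Gnb4. Ccn3, a matricellular relative of Ccn2, stood at 136 and 181 CPM in adult and 168 and 165 in aged deep spots (0.07) and had −0.91 in upper spots. Kcnab3 had −0.51 in deep and 1.09 in upper spots, and Apod 0.98 and −0.01. Pmch, with 3.77 and 35.7 CPM in adult and 1.03 and 0.25 in aged deep spots, lost its call without the first aged section.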

How the results depend on the processing

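The P21 count of 578 called genes became 370 with DESeq2 and 101 with glmTreat, which tests against the 1.5-fold limit itself, and ranged from 374 to 632 with 1 section left out. The aged count of 1265 became 148 with glmTreat and ranged from 1106 to 1442. For the layer by age term, the P21 count of 6 became 1 with DESeq2, 0 without the detection filter, 16 with the top 12% of spots, 30 with adjacent members alone, 21 without the myelin-rich members, 46 in the main bands and 13 after thinning, and ranged from 0 to 31 with 1 section left out. The aged count of 562 became 101 with DESeq2, 146 without the detection filter, 222 with the log score and 338 after thinning, and ranged from 221 to 651. With the log score the aged change of Penk went from 0.71 to −0.16 and the near-projecting ratio of members over others from 0.45 to −0.083. The aged layer difference of Pmch was 0.75 with adjacent members alone and 0.95 in the main bands. The cause of these shifts was not tested. With the replicate number as a block the counts were 577 (380 higher, 197 lower) and 1261 (846 and 415), and numbers did not pair the sections.

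Of lists, called members at P21 moved for immediate early genes (5 to 3 without the myelin-rich members), immature neuron genes (4 to 8 with the log score or the top 12%) and sterol synthesis genes (3 to 5 after thinning). With glmTreat the P21 counts of higher genes became 3 for newly formed oligodendrocyte, 2 for immature neuron, 1 for meningeal, 1 for perineuronal net and 0 for sterol synthesis genes, and that of lower immediate early genes became 3. In aged mice glmTreat left 3 reactive astrocyte, 2 interneuron, 2 heat shock and 1 layer 6b gene higher, 1 mature oligodendrocyte and 1 endothelial gene lower, and 0 higher genes of layer 5, reactive microglia and MHC class I and 0 lower guidance genes. In aged mice the lower mature oligodendrocyte genes went from 4 to 2 with the top 5% and 8 with the log score, layer 6b genes from 3 to 1 with DESeq2, as did MHC class I genes, and heat shock genes from 4 to 2. Higher layer 5 genes went from 3 to 1 with the top 5%, and reactive microglia genes from 4 to 1 without the myelin-rich members. Lower guidance genes went from 3 to 5 with adjacent members alone and 1 after thinning, and ion channel genes of the layer term from 7 to 4 with DESeq2 and 3 with the log score. For that term the lower immediate early genes went from 4 to 1 with DESeq2 or without the detection filter and to 2 with the top 5% or the log score, the mature oligodendrocyte genes from 7 to 3 without the detection filter, and newly formed oligodendrocyte genes from 3 to 1 with DESeq2, without the detection filter, with adjacent members alone or in the main bands. The count of 11 immediate early genes higher in aged mice ranged from 8 to 13 over the alternatives run. Among genes named, 98 values at P21 and 179 in aged mice lost the call under an alternative. A further 2108 and 2270 were rated the same, 28 and 15 were rated stronger, and 1 value in aged mice was reversed. The P21 count was 454 without the second P21 section, the shallowest, and all values are limited by 2 sections per age.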

Other observations

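Of the complement list C4b alone was called in aged deep layer spots by edgeR. C1qb, a C1q chain made by microglia, stood at 45.4 and 44.0 CPM in adults and 72.7 and 61.6 on the aged sections (0.58 ± 0.12, adjusted p = 0.000765), just under the fold limit, while C1qa had 0.13 ± 0.11 and C1qc 0.21 ± 0.11. C3, the central complement component, stayed under 2 CPM on every section and was not tested. Of the interferon-induced list, Ifit3, which passed the detection limit only through the aged sections, was higher in aged mice (3.32 and 2.54 to 7.89 and 5.76 CPM, 1.19 ± 0.32), although DESeq2 did not call it and edgeR did not without the second adult section (1.01, adjusted p = 0.0879), and Ifi27 was lower at P21 (18.7 and 16.8 CPM against 33.7 and 32.3 in adults, −0.86 ± 0.15).

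Of 20 projection neuron transcription factors, Pou3f1 was called at P21 and Bcl11b in aged mice. Sox5, which shapes deep layer identity, stood at 61.4 and 66.9 CPM at P21, 61.4 and 66.6 on the adult sections and 77.0 and 66.7 on the aged sections and was not called. Bhlhe40, a clock-linked repressor, had values that were ordered by age, with 85.8 and 90.2 CPM at P21, 152 and 146 on the adult sections and 264 and 279 on the aged sections (−0.77 ± 0.10 and 0.87 ± 0.09 against adults). Bhlhe40 comes from a list of genes that the study names on the same sections, so it is no independent evidence of direction.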
